A study of Procambarus virginalis with 3 samples.

Results

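The 100 most abundant hemocyte transcripts of the marbled crayfish (*Procambarus virginalis*) were described at the level of gene models. A gene model is a predicted gene of the genome annotation, named in the files by an identifier that holds its scaffold number and its prediction method. Abundance was taken as TPM, which is the read count of a model divided by its effective length and expressed as a share of a fixed total per library, so that models of different length can be ranked. The models were chosen by their mean TPM over all 3 libraries, and the 100 highest of 21773 models were kept, with ties ordered by identifier. Levels, ranks and shares are therefore a description with no test. The study sequenced mRNA of marbled crayfish hemocytes next to maps of DNA methylation and chromatin accessibility of the same cell type. The 3 libraries are named hem37, hem39 and hem40 and form 1 group, hemocytes, from pooled wild catches of lake Reilingen. The labels give no age and no number of animals per library, so that the spread between libraries may be biological or technical. Marbled crayfish are all female and reproduce clonally, and there is no second genotype or treatment to compare with.

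Hemocytes are the free cells of crustacean hemolymph. They engulf or encapsulate foreign material, release clotting factors and antimicrobial peptides, and carry the prophenoloxidase system, which leads to melanin formation. In animal cells in general, the most abundant mRNAs often encode ribosomal proteins, translation factors, cytoskeletal proteins and, in secretory cells, the proteins that are secreted. The files do not pair the identifiers with gene names, and no genome, annotation or sequence of the species was used here. Which of the 100 models belong to such groups was therefore not analysed, and the hemocyte label could not be checked against hemocyte markers. No sequences are shown for the same reason.

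The libraries held a total of 18986789, 17367967 and 21143354 expected counts in hem37, hem39 and hem40. An expected count is the number of reads that RSEM, the program used by the authors, attributed to a model after dividing reads that fit several models. The 100 models had mean expected counts between 4769 and 321300, with a median of 31983. Counting error alone was a median of 0.559% of the mean count for these models. The reads carry no molecular identifiers, and all intervals on counts cover counting error only.

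The most abundant model was maker-scaffold4177-exonerate_est2genome-gene-0.3, with 32719, 23630 and 14527 TPM in hem37, hem39 and hem40. It led the ranks of hem37 and hem40 and came next to the top in hem39. Next in the list was maker-scaffold3909-snap-gene-0.0, with 17610, 24059 and 9590 TPM in hem37, hem39 and hem40. The third, maker-scaffold4177-exonerate_est2genome-gene-0.2, lies on the same scaffold as the first and had 15161, 10589 and 5962 TPM. All 3 leading models were lowest in hem40, and both on scaffold4177 were highest in hem37. Together the 3 models accounted for 6.55, 5.83 and 3.01% of TPM in hem37, hem39 and hem40.

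The fourth model, maker-scaffold11044-snap-gene-0.24, had 3870, 16030 and 8568 TPM in hem37, hem39 and hem40, with ranks 25, 3 and 4. The fifth, maker-scaffold11640-snap-gene-0.0, had 8192, 6749 and 12113 TPM, and was the second highest model of hem40. Neither of these 2 models was lowest in hem40, unlike the 3 above them. In contrast, the sixth, evm-scaffold85387-processed-gene-0.1, had 8708, 9412 and 8305 TPM and was at rank 5 in every library. It was the only model of the 100 that held the same rank in all 3 libraries.

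The remaining 4 of the 10 highest were lower and closer together. The model snap-scaffold22288-processed-gene-0.20 had 8856, 5646 and 6270 TPM in hem37, hem39 and hem40. The model evm-scaffold99709-processed-gene-0.5 had 6318, 6951 and 5538 TPM, and evm-scaffold99761-processed-gene-0.2 had 6186, 6544 and 4989 TPM. The last of the 10, maker-scaffold45412-exonerate_protein2genome-gene-0.29, had 5143, 6430 and 5063 TPM. The last 3 of these followed 1 order, with hem39 highest and hem40 lowest.

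**Figure D1:**
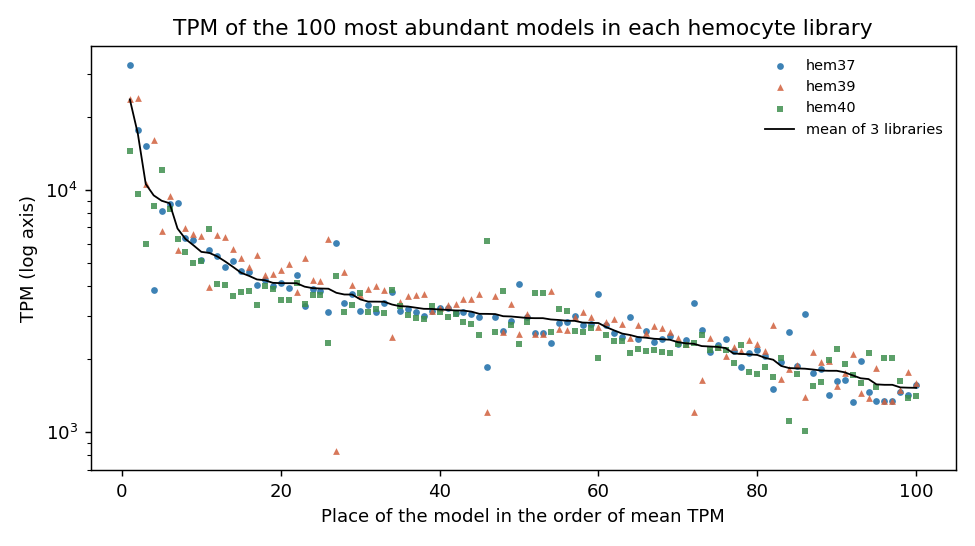
TPM (log axis) of the 100 most abundant models against their order by mean TPM, with 1 point per library and model. The spread between libraries is widest for single models, such as the fourth with 3870 TPM in hem37 and 16030 in hem39, while most models keep their 3 points close together.

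The 100 models held 37.3, 38.8 and 32.8% of TPM in hem37, hem39 and hem40, or 36.3% ± 3.08 (SD, n = 3). The 10 highest alone held 11.3%, 11.6% and 8.09%, or 10.3% ± 1.94 (SD, n = 3). The other 90 held 26.0%, 27.2% and 24.7%, or 26.0% ± 1.21 (SD, n = 3). The lower share in hem40 was in proportion larger for the 10 highest, which made up 30.3, 29.9 and 24.6% of the TPM of the 100 models in hem37, hem39 and hem40. In hem40, 311 models were needed to reach 50% of TPM, and it was 239 for hem37 and 195 for hem39.

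The share of reads was smaller than the share of TPM. The 100 models took 26.4% of expected counts in hem37 (95% Wilson interval 26.42 to 26.46), 27.4% in hem39 (27.36 to 27.40) and 23.8% in hem40 (23.75 to 23.78). The mean was 25.9% ± 1.87 (SD, n = 3). The order of the libraries was the same as for TPM.

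**Figure D2:**
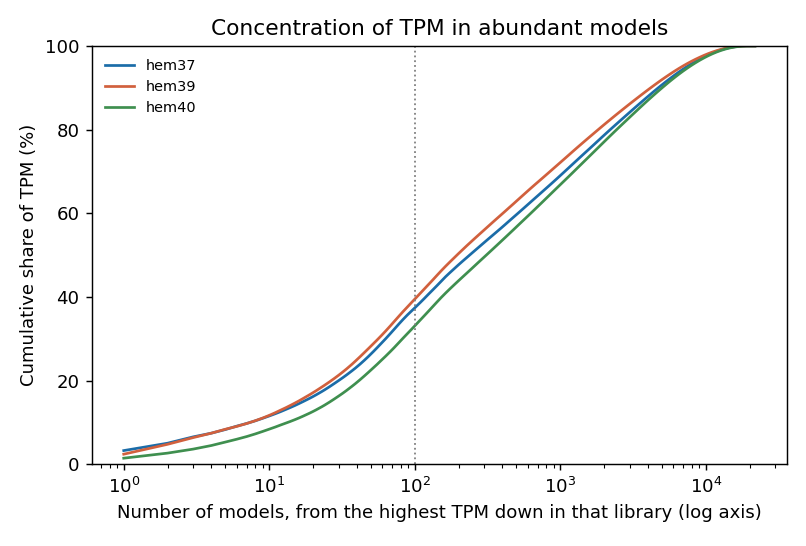
Cumulative share of TPM (%) against the number of models counted from the highest TPM down in each library (log axis). The dotted line marks 100 models. The curve of hem40 runs below the others up to there, and 50% of TPM is reached with 239, 195 and 311 models in hem37, hem39 and hem40.

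Since the mean of the same libraries chose the models, their ranks in each library are in part fixed by the choice. Of the 100 models, 83 were among the 100 highest of all 3 libraries, 9 of 2 libraries and 8 of 1 library. By library, 93 were in the 100 highest of hem37, 89 of hem39 and 93 of hem40. The lowest rank that any of them took was 118, 178 and 155 in hem37, hem39 and hem40. The range of ranks of a model over the libraries had a median of 13.5 (quartiles 7 and 23.25), was at most 10 for 41 models and exceeded 50 for 6 models. It was smaller near the top, with a median of 10 for models 1 to 50 and 16.5 for models 51 to 100. Levels lie further apart near the top, so a like change in TPM crosses fewer ranks there. The mean was 23626 TPM at place 1 and 5545 TPM at place 10, but 1764 TPM at place 91 and 1522 TPM at place 100. A smaller range of ranks thus does not mean a smaller spread of TPM.

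The order of neighbours in the list often differed between libraries. Of 99 pairs of adjacent models, 3 (3.03%) had the same order in all 3 libraries. For models 5 places apart it was 26 of 95 pairs (27.4%), for 10 places 37 of 90 pairs (41.1%), for 20 places 62 of 80 pairs (77.5%) and for 40 places 57 of 60 pairs (95%). These shares follow in part from how close the means are, and the means come from the same libraries, so they are a description of the list only.

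The limit at 100 does not mark a step in abundance. Just inside it were maker-scaffold15282-exonerate_protein2genome-gene-0.16 with 1337, 1346 and 2017 TPM in hem37, hem39 and hem40, maker-scaffold3083-snap-gene-1.1 with 1467, 1497 and 1622 TPM, maker-scaffold49644-snap-gene-0.24 with 1416, 1769 and 1387 TPM and maker-scaffold6973-snap-gene-0.2 with 1559, 1594 and 1413 TPM. The first model outside, evm-scaffold39468-processed-gene-0.14, had 1189, 1860 and 1501 TPM, followed by evm-scaffold112282-processed-gene-0.1 with a mean of 1516 TPM, evm-scaffold90817-processed-gene-0.1 with 1486 TPM and maker-scaffold23229-snap-gene-0.1 with 1485 TPM. The means of the last model inside and the first outside were 5.37 TPM apart, which is less than the spread of either model between libraries. In all, 123 models were among the 100 highest of at least 1 library, and 23 of those were not in the list.

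The only look at ranks that the choice did not use is to choose 100 models from 2 libraries and find them in the library left out. Of the models chosen without hem37, 89 were among its 100 highest, and the number was 87 for hem39 and 89 for hem40, with a mean of 88.3. Within the 200 highest of the library left out, 99, 99 and 98 were found for hem37, hem39 and hem40. A total of 3 models were found below rank 200. The model maker-scaffold21106-snap-gene-1.39 had 3636 TPM in hem39, against 19.7 in hem37 (rank 5786) and 15.5 in hem40 (rank 7017), and its mean put it at rank 131. The model maker-scaffold25634-snap-gene-0.51 had 1148, 1934 and 151 TPM in hem37, hem39 and hem40 and ranked 968 in hem40. The third was evm-scaffold52936-processed-gene-0.7, with 1358, 519 and 1730 TPM and rank 264 in hem39.

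The spread of TPM between libraries was then described by the coefficient of variation, the SD divided by the mean of the 3 libraries. Its median over the 100 models was 0.127 (quartiles 0.084 and 0.232, range 0.015 to 0.878), against 0.143 for the next 100 models in rank, 0.149 for the next 900 and 0.214 for the 16659 models with a mean TPM of at least 1. A coefficient under 0.1 was found for 34 of the 100 models, against 16.8% of models with a mean TPM of at least 1. After TMM scaling it was 7 of the 100, against 22.0%. The order of the group medians depended on the scaling. TMM, the trimmed mean of M values, sets the libraries to a common level of the average gene instead of a common total. After TMM scaling the median was 0.205 for the 100 models, 0.160 for the next 100, 0.133 for the next 900 and 0.190 for models with a mean TPM of at least 1. The median of the 100 models was thus below those of the other groups in TPM and above them after TMM scaling.

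All 100 models differed between the libraries by more than the sampling of reads, in a chi-square test of the 3 counts against TMM-scaled library sizes with Benjamini-Hochberg adjustment at 0.05. The same test called 55.3% of the 16140 models tested, which had mean counts of 10 or more. At the depth of the 100 models, small differences pass such a test. When a spread of 0.25 of the mean between libraries was allowed for in addition, 4 of the 100 models passed, against 2.97% of all models tested. These were maker-scaffold11044-snap-gene-0.24 with an adjusted p = 0.00263, evm-scaffold134450-processed-gene-0.7 with 0.00599, maker-scaffold2493-snap-gene-0.13 with 0.0225 and maker-scaffold256000-snap-gene-0.0 with 0.0364, all by the Benjamini-Hochberg adjusted chi-square test. No conditions are compared by this test, only the reads of the libraries.

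The 4 models differed in which library stood apart. The model evm-scaffold134450-processed-gene-0.7 had 1848, 1206 and 6172 TPM in hem37, hem39 and hem40, with ranks 86, 138 and 8. The model maker-scaffold256000-snap-gene-0.0 had 6042, 835 and 4396 TPM, with ranks 9, 178 and 13. The first was high in hem40 only, and the second was low in hem39 only. Without hem40 the mean of the scaffold134450 model was 1527 TPM, against 3075 TPM over all 3 libraries. The model maker-scaffold2493-snap-gene-0.13 had 3122, 6262 and 2334 TPM and was high in hem39, as was the scaffold11044 model, whose mean was 6219 TPM without hem39, against 9489 TPM over all libraries. Their coefficients of variation were 0.878 for the scaffold134450 model, 0.708 for the scaffold256000 model, 0.646 for the scaffold11044 model and 0.532 for the scaffold2493 model. A further model, maker-scaffold1806-snap-gene-1.0, had 3071, 1396 and 1011 TPM and a coefficient of 0.600, and was not called by the test with the added spread. Its mean was 1203 TPM without hem37, against 1826 TPM with it.

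At the other end, maker-scaffold19629-snap-gene-0.2 had 2284, 2234 and 2220 TPM in hem37, hem39 and hem40, with a coefficient of variation of 0.0149. The model evm-scaffold12362-processed-gene-0.0 had 3250, 3244 and 3125 TPM, and maker-scaffold2706-snap-gene-0.0 had 2388, 2302 and 2281 TPM. Their coefficients were 0.0221 and 0.0245 in TPM. After TMM scaling the coefficients of these 3 models were 0.102 for the scaffold19629 model, 0.118 for the scaffold12362 model and 0.103 for the scaffold2706 model, and the near identity of the libraries holds for TPM only.

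The highest library was over 2 times the lowest for 10 of the 100 models, against 24.5% of models with a mean TPM of at least 1. After TMM scaling it was 11 of the 100, against 21.5%. The 10 models were highest in hem37 for 6, in hem39 for 3 and in hem40 for 1, and lowest in hem40 for 6. Their share of TPM was 8.94, 8.70 and 5.60% in hem37, hem39 and hem40, while the other 90 held 28.3%, 30.1% and 27.2%. The 4 highest models of the list were all among the 10. Without hem37 the count was 5, and it was 6 without hem39 and 6 without hem40. For a given model the ratio over 2 libraries cannot exceed that over all 3, so lower counts follow in part from leaving a library out.

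Among the 100 models, the library with the highest level was most often hem39. In TPM, 61 were highest in hem39, against 20.2% of models with a mean TPM of at least 1, while 19 were highest in hem37, against 30.5%, and 20 in hem40, against 49.3%. Hem40 was the lowest library for 64 of the 100, against 17.2%, hem39 for 20, against 58.3%, and hem37 for 16, against 24.5%. The most frequent order was hem39 above hem37 above hem40, which 52 of the 100 followed, against 9.53%. TPM is a share of a fixed total, so a higher share of abundant models means a lower share of the others. After TMM scaling, 74 of the 100 were highest in hem39, against 36.8%, and 74 were lowest in hem40, against 30.9%. The other counts after TMM scaling were 16 highest in hem37, against 30.3%, 10 highest in hem40, against 32.9%, 19 lowest in hem37, against 30.4%, and 7 lowest in hem39, against 38.7%. DESeq2 size factors gave the same 6 counts. The percentages over all expressed models were then 30.7, 38.2 and 31.1% highest and 30, 37.4 and 32.6% lowest in hem37, hem39 and hem40. Hem39 was thus most often highest and hem40 most often lowest under each of these 3 scalings. The models next in rank leaned the same way after TMM scaling, where hem39 was above hem40 for 86 of the 100 models, against 67 of the next 100, 59.9% of the next 900 and 48.2% of models with a mean TPM of at least 1. In TPM it was 73 of the 100, against 45, 31.8% and 27.8%.

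The size of this shift was moderate. The log2 ratio of hem39 over hem40 had a median of 0.23 for the 100 models and -0.31 for models with a mean TPM of at least 1, and after TMM scaling it was 0.51 against -0.02, with 0.24 for the next 100 models. For hem37 over hem39, the median was -0.10 against 0.20 in TPM and -0.30 against 0.00 after TMM scaling, with -0.23 for the next 100 models. For hem37 over hem40, it was 0.09 against -0.08 in TPM and 0.17 against -0.00 after TMM scaling. The median of all expressed models thus moved by over 0.1 in log2 between TPM and TMM for 2 of the 3 pairs. TMM scaling changes all models of a library by a common factor, so every model of a pair of libraries shifts equally. The side of that median on which the 100 models lie is therefore the same under both by construction. The libraries differ in depth, with hem39 the shallowest and hem40 the deepest, and the part of depth in these differences was not tested. In bulk RNA, fewer cells of a type and less RNA per cell cannot be told apart.

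The 61 models that were highest in hem39 held 21.2, 26.4 and 19.2% of TPM in hem37, hem39 and hem40, and their highest level was a median of 1.25 times the lowest. The 19 models that were highest in hem37 held 10.8%, 7.51% and 6.49%, with a median of 1.57 times and a range from 1.03 to 7.23 times. The 20 models that were highest in hem40 held 5.33%, 4.89% and 7.19%, with a median of 1.45 times and a range from 1.05 to 5.12 times. In TPM, the models with hem39 highest thus had the smallest median range of the 3 groups. Ranges after TMM scaling were not compared for these groups. The groups were formed from the values described.

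**Figure D3:**
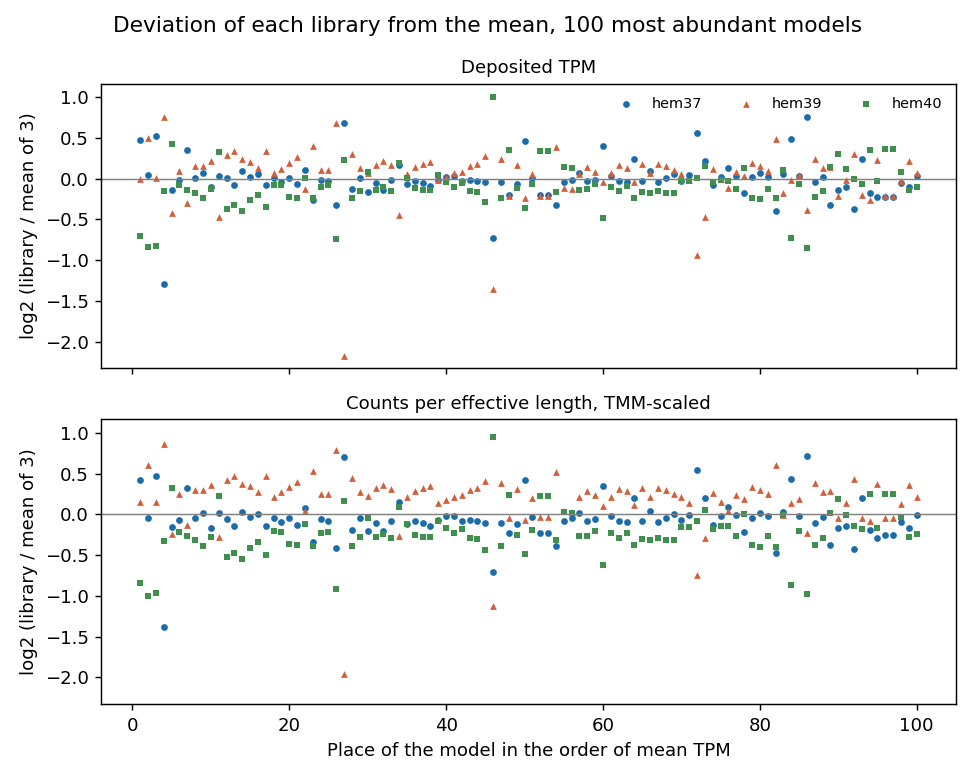
Log2 deviation of each library from the mean of the 3 libraries for the 100 most abundant models in order of mean TPM, with deposited TPM in the upper panel and TMM-scaled counts per effective length in the lower one. In the upper panel, points of hem39 lie mostly above 0 and those of hem40 mostly below it, with 61 models highest in hem39 and 64 lowest in hem40, and in the lower panel it is 74 and 74.

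The 100 models were of about average length. Their median was 570 bases (quartiles 418 and 871, range 93 to 3936), against 546 bases for all models, 585 for models with a mean TPM of at least 1 and 742 for the next 900 models. Length is part of TPM and is not independent of the choice. Ranked by expected count instead, the 100 highest models had a median length of 1220 bases, and 60 of them were shared with the list by TPM. Those 60 had a median of 786.5 bases, and the 40 models of the list that were not among the 100 highest by count had a median of 404.5 bases. Among models outside the list, 568 had mean counts at least as high as the lowest of the 100, with a median length of 2150 bases.

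The shortest model, maker-scaffold45412-exonerate_protein2genome-gene-0.29, is 93 bases long and has an effective length of 43.0 bases. It was at place 10 by TPM and at rank 668 by expected count, with a mean of 4769 counts. The next shortest was maker-scaffold73662-exonerate_protein2genome-gene-0.2, at 150 bases, with 3924, 4930 and 3499 TPM in hem37, hem39 and hem40 and rank 387 by count. It was followed by evm-scaffold155136-processed-gene-0.4, at 171 bases, with 1509, 2775 and 1681 TPM and rank 665 by count. TPM of such models rests on few bases of effective length, and 7 of the 100 were shorter than 250 bases.

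The longest models were evm-scaffold39468-processed-gene-0.13 with 3936 bases, maker-scaffold16826-snap-gene-0.26 with 3228 bases and evm-scaffold33215-processed-gene-0.15 with 2706 bases. Their places by TPM were 92, 50 and 23, and by expected count 8, 5 and 4. The TPM values were 1325, 2104 and 1712 in hem37, hem39 and hem40 for the scaffold39468 model, 4086, 2532 and 2320 for the scaffold16826 model and 3310, 5256 and 3387 for the scaffold33215 model. In all, 10 of the 100 models were longer than 1500 bases.

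**Figure D4:**
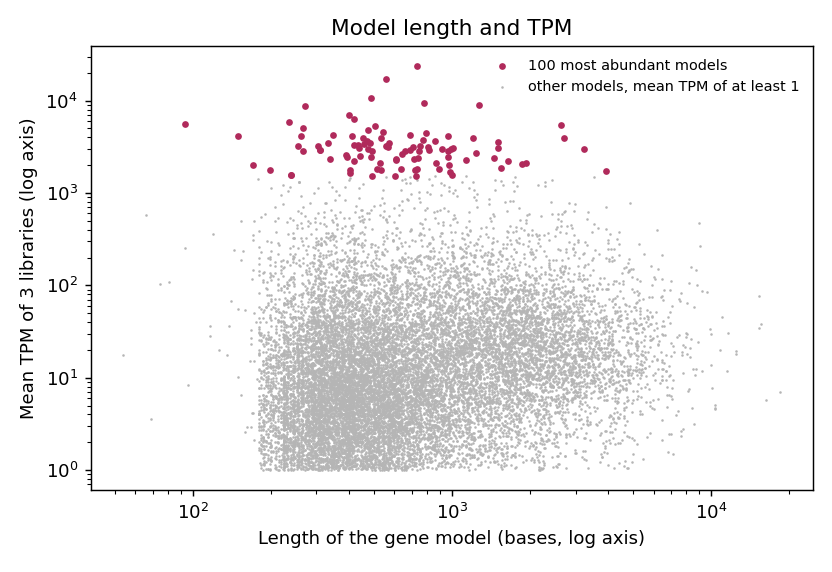
Mean TPM against model length in bases (both axes log) for the 100 most abundant models and the other models with a mean TPM of at least 1. The 100 models span lengths from 93 to 3936 bases, and the shortest of them is at place 10 by TPM.

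The 100 models lie on 97 of the 12012 scaffolds. Only 2 scaffolds carried more than 1 of them. Scaffold4177 carried the models at places 1 and 3, and scaffold15282 carried maker-scaffold15282-snap-gene-0.2, maker-scaffold15282-exonerate_protein2genome-gene-0.11 and maker-scaffold15282-exonerate_protein2genome-gene-0.16. For 21 of the 100, no other model lies on the scaffold, against 33.3% of all models. The scaffolds of the 100 held 219 other models, with a median of 13.6 TPM, and 22 of these (10.05%) were among the next 900 models by TPM. On other scaffolds with at least 2 models, the median was 6.04 TPM and 570 of 14218 models (4.01%) were among the next 900. Scaffold neighbours of the 100 models thus had a higher median than models on the other scaffolds, though most of them lay below the next 900 models. This comparison is a description.

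Profiles over the libraries were compared for models on 1 scaffold. The distance between profiles was taken as the range, over the libraries, of the log2 ratio of a pair of models, so that 0 means proportional levels. Over the 4950 pairs of the 100 models its median was 0.55. It was 0.18 for the pair on scaffold4177, and 15.7% of the pairs were closer than that. The distance was 0.03 between evm-scaffold39468-processed-gene-0.13 and evm-scaffold39468-processed-gene-0.14, the first model outside the list, and 0.03 between evm-scaffold155136-processed-gene-0.4 and its neighbour evm-scaffold155136-processed-gene-0.3. These identifiers are numbered next to each other, and the files do not say whether they are pieces of 1 gene. Sharing a scaffold went with close profiles for some pairs and not for others. The 30 pairs of a listed model and a scaffold neighbour outside the list with a mean TPM of at least 100 had a median of 0.52. Their distances ran from 0.008 for maker-scaffold49644-snap-gene-0.24 and maker-scaffold49644-snap-gene-0.25 to 3.35 for snap-scaffold1066-processed-gene-0.11 and its neighbour. The median of 0.55 is over pairs within the list, which is an unlike set. The distance was 2.62 for maker-scaffold11044-snap-gene-0.24 and its neighbour.

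Of the 100 models, 4 had the same values as another listed model. The models maker-scaffold22812-snap-gene-0.22 and maker-scaffold336218-snap-gene-0.7 are both 309 bases long and each had 2566, 2551 and 3740 TPM in hem37, hem39 and hem40. The models maker-scaffold15282-exonerate_protein2genome-gene-0.11 and maker-scaffold15282-exonerate_protein2genome-gene-0.16 are both 240 bases long and had 1337, 1346 and 2017 TPM each. RSEM divides reads between models it cannot tell apart, and with equal counts and lengths in every library the share of either copy is unknown. The sum of a pair does not depend on this division. It was 5132, 5103 and 7479 TPM for the pair on scaffold22812 and scaffold336218, or 5905 ± 1364 (SD, n = 3), and 2674, 2693 and 4033 TPM for the pair on scaffold15282, or 3133 ± 780 (SD, n = 3). Ranked as 1 entry each, the pairs would take places 10 and 46.

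The same holds outside the list. The models maker-scaffold113356-exonerate_protein2genome-gene-0.0 and maker-scaffold336218-exonerate_protein2genome-gene-0.1 had 1113, 1188 and 1664 TPM each, and their sum, 2643 ± 598 TPM (SD, n = 3), would be at place 62. With identical models summed into 1 entry, 98 of the 100 identifiers stayed among the 100 highest. The 2 that left were the merged copies of the listed pairs, so no listed level fell below the limit. The 2 that entered were this sum and evm-scaffold39468-processed-gene-0.14. Among models with a mean TPM of at least 1, 108 models (0.648%) had values identical to another model. All 3 pairs were highest in hem40, as were 49.3% of models with a mean TPM of at least 1. Their levels in hem40 were 1.46 to 1.51 times those of hem37, and they were near equal in hem37 and hem39. Scaffold336218 carries a model of this outside pair and a model of a listed pair, so the 3 pairs are not fully separate cases. A model with no shared reads, evm-scaffold78605-processed-gene-0.0, had 2606, 2595 and 3823 TPM and a level in hem40 of 1.47 times that in hem37. It was the exception among the models picked out for a profile near that of the scaffold22812 model, at distances up to 0.16. The others, which include the pairs, all had shared reads, with mean posterior SDs from 0.0643% to 27.4% of the count. Whether shared reads bear on this profile was not tested.

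Apart from these pairs, read assignment was well determined. RSEM's posterior SD describes how far the count of a model could shift if shared reads were divided otherwise, and it is 0 where no read is shared. It was 0 in all libraries for 76 of the 100 models, against 30.5% of models with a mean TPM of at least 1 and 47.7% in the next 900 models. Counts bear on this comparison. Among the 568 models outside the list with a mean count of at least 4769, the lowest of the 100, it was 64.3%. The 100 models had a median of 31983 counts, so these groups are not matched in count. Averaged over the libraries, the posterior SD exceeded 1% of the count for 4 of the 100, which are the 2 identical pairs. It did so for 58.0% of models with a mean TPM of at least 1 and 4.23% of those 568 models. For the pairs it was between 13.4% and 29.2% of the count in single libraries. The other 20 models with shared reads stayed at or below 0.770% in every library, the value in hem39 of maker-scaffold158076-exonerate_est2genome-gene-0.3.

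The deposited interval of TPM also covers counting error and does not describe read assignment alone. The first model, with a posterior SD of 0, had a width of 0.711% of its level and a counting error of 0.176%. The width was a median of 2.19% of the level for the 100 models. It was 4.46% for the models outside the list with at least 4769 counts. Among models with a mean TPM of at least 1 it was 40.6%. These widths differ with the counts of the groups. The range over the 100 was 0.711% to 74.5%, with the identical pairs at the upper end. For 95 of the 100 models the intervals of at least 1 pair of libraries did not overlap, against 50.6% of models tested. When the posterior variance was added to the chi-square test, 96 of the 100 were called, against 47.5%. More than 1 transcript was annotated for 1 of the 100, maker-scaffold8077-exonerate_protein2genome-gene-0.4, with 3715, 2727 and 2015 TPM in hem37, hem39 and hem40.

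**Figure D5:**
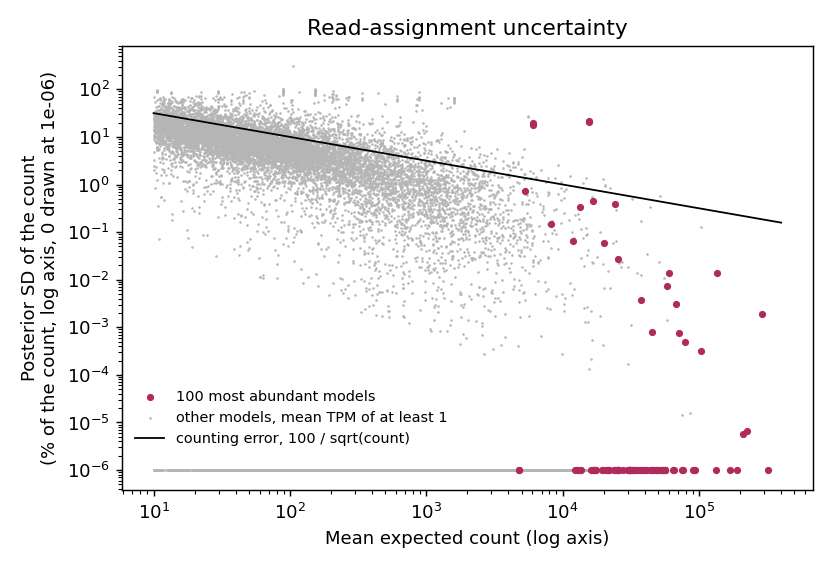
Posterior SD of the count, as % of the count, against the mean expected count (both axes log, with 0 drawn at 1e-06) for the 100 most abundant models and other models with a mean TPM of at least 1. The line is the counting error. The 2 identical pairs, with 18.2% to 21.1% as means over the libraries, lie above it, and 76 of the 100 models lie at 0.

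The prediction methods named in the identifiers were not evenly represented. Models named evm made up 36 of the 100, against 9.68% of all models, 11.2% of models with a mean TPM of at least 1 and 19.2% of the next 900. They were 25 of models 1 to 50 and 11 of models 51 to 100. Models named after protein alignments (exonerate_protein2genome) made up 5 of the 100, against 3 of the next 100 and 0.873% of all models. Those 5 include the identical pair on scaffold15282. Models named snap made up 8, against 21 of the next 100 and 28.1% of all models. Those named snap_masked made up 7, against 11 of the next 100 and 23.4% of all models. Maker models with snap made up 39, against 33 of the next 100 and 26.0% of all models. Models named exonerate_est2genome made up 5, against 10 of the next 100 and 11.97% of all models. Those 5 include the models at places 1 and 3. How the choice of method relates to length, abundance or the evidence used for annotation was not tested.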

How the data were processed

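RNA of hemocytes was sequenced in 3 libraries, which form 1 group by their tissue label. Per the submitters' processing notes, HISAT2 2.0.4 and RSEM 1.2.30 were used. The authors used RSEM to calculate TPM per sample and deposited 1 table per library. How HISAT2 was used with it, the genome build and the annotation release are not given in the sources used here. Deposited expected counts are RSEM-estimated reads per model, not normalized. The deposited TPM values are counts divided by effective length and set to a common total. Posterior SD and TPM interval bounds were deposited as RSEM's scores of uncertainty, and the level of the intervals is not stated. The members and lists were chosen with earlier results of these data known.

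Expected counts were rounded for the chi-square test (2 degrees of freedom, mean count at least 10, Benjamini-Hochberg threshold 0.05), with TMM library sizes from edgeR 4.0.16. DESeq2 1.42.0 gave size factors as an alternative (R 4.3.3, Python 3.11.15). P-values measure only how far the counts of these libraries depart from TMM-scaled library sizes beyond the variance allowed for. That variance was counting error, alone or with RSEM's posterior variance or a spread of 0.25 of the mean. The 0.25 was chosen and not estimated from these data. A model at 0 may have up to 3 counts, or 0.302, 0.324 and 0.280 TPM at median length in hem37, hem39 and hem40. Models named in the text were the 10 highest, 4 on each side of the limit, the 5 most and 3 least variable, the 3 longest and shortest, those with the largest posterior SD, a shared scaffold or more than 1 transcript. The scaffold78605 model, the scaffold neighbours and the models far down in 1 library were named after their values were seen. Alternatives were other scalings, ranking by count, lists of 50 and 200, other comparison models and leaving out each library.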

Additional observations from a re-analysis of the deposited data

How the results depend on the processing

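The list depended mainly on the measure of abundance. Of 80 alternatives to the summary values, 50 left them within their limits and 30 moved them. The limit was 1 SD between libraries for a value and 1.5 times for a count. For the coefficient of variation, the SD was between the values with 1 library left out. Some labels were fixed in advance, as the 50 highest must share 50 models with the list and the 200 highest must share 100. Others set unlike measures side by side, such as an SD of log2 beside a coefficient of variation. The 50 and 30 are therefore no measure of how firm the values are. All 216 alternatives for the mean TPM of the 36 named models moved it by less than 1 SD. For the median and for leaving out 1 library this was fixed in advance, since with 3 libraries neither can move a mean by 1 SD. Of the 216 alternatives, 4 moved the mean TPM by over 1.5 times. These were the scaffold134450 model, with 1527 TPM without hem40 and 1848 TPM as a median, against 3075 TPM, the scaffold11044 model, with 6219 TPM without hem39, against 9489 TPM, and the scaffold1806 model, with 1203 TPM without hem37, against 1826 TPM. Ranked by expected count, 60 of the 100 models remained, and the median length was 1.16 higher on the log2 scale than for all models, against 0.062 in the list by TPM. This log2 difference was -0.037 against models with a mean TPM of at least 1, -0.023 for the 50 highest and 0.27 for the 200 highest models. The share was 25.9% for counts, 25.2% for the 50 highest and 46.9% for the 200 highest, and the list of 50 shared 50 models. With a spread of 0.25 added, 4 of the 100 passed the chi-square test. The median coefficient of variation was 0.205 after TMM scaling of TPM or counts, and the SD of log2(TPM + 0.1) was 0.180. Models sharing a scaffold were 2 for the list of 50 and 30 for 200, against 5. The difference in the share of models with no shared reads was 43.6 percentage points. It was 29.7 against models with at least 100 counts, and 49.6 for 50 and 32.1 for 200 models. Against models outside the list with at least 4769 counts it was 11.7, an alternative chosen after seeing the data. In median interval width, an unlike measure, the difference was -36.5 points. The excess of evm models was 26.3 points, and was 24.8 against models with a mean TPM of at least 1, 40.3 for 50 and 19.3 for 200 models. Leaving out 1 library gave 5 to 6 models over 2-fold, where the ratio of a given model can only stay or fall with fewer libraries. It also gave 96 to 97 shared models, a share of 35.1% to 38.1%, 97 to 100 models past the chi-square test and a coefficient of 0.0886 to 0.155. The length difference was then 0.062 to 0.15, with 4 to 8 models sharing a scaffold (8 without hem37) and an excess of evm models of 26.3 to 28.3 points. The counts of 74 models highest in hem39 and 74 lowest in hem40 after TMM or DESeq2 scaling, and the summing of identical models, were also chosen after seeing the data. The cause of these changes was not tested. No paired analysis was possible because there is only 1 group of samples.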
